A study of Oncorhynchus mykiss with 48 samples.

Results

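The genes described here are 114 genes whose liver transcript levels differed between the F2 and F1 generations of Control rainbow trout in the same direction at both sampled ages. They are called members below. They are 114 of the 46568 genes left after 17 of the 46585 genes in the deposited tables were set aside because Cuffdiff had marked them as having too many fragments to quantify (HIDATA). Levels were given as CPM, the fragment count of a gene divided by the total of the fish over these genes and scaled to a fixed total. The members were chosen by these levels in Control fish. The rule used the means of 4 Control fish per time point and asked for a log2 ratio of F2 over F1, with 0.5 CPM added to each mean, of the same sign and of at least 1 in size, both at 365 dpf (days post fertilization) and between F2 at 112 dpf and F1 at 140 dpf. It also asked that the log2 ratio of the later over the earlier age lay between -1 and 1 within each generation, that a Control group averaged at least 2 CPM, and that the gene was not among the 100 most abundant. At most 200 genes were to be kept, and only 114 passed, 77 of them higher in F2 Controls and 37 lower.

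The study asked how bisphenol A (BPA) deposited in rainbow trout eggs affects the F1 and F2 generations. Livers of 48 fish were sequenced, 4 in each of 12 groups. F2 fish were sampled at 365 and 112 dpf, and F1 fish at 365 and 140 dpf, each from Control, BPA4 and BPA40. F1 fish grew from eggs that were incubated for some hours before fertilization in ovarian fluid with ethanol vehicle or with BPA at 3 or 30 mg/l, which left 0, 4 or 40 ng of BPA per egg. F2 fish grew from eggs of F1 females of the same treatment, fertilized by untreated males, and were not themselves incubated with BPA. All fish had food withheld before sampling. F1 fish of a treatment came from several tanks and F2 fish of a treatment from 1 tank, so that tank and treatment cannot be told apart in F2. Generation cannot be told apart from the year, the parents and the tanks, and the deposited tables are split by time point. The younger fish also differed in age between the generations.

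Liver is the main source of plasma proteins in fish, takes up and releases sugars and lipids with feeding state, and clears foreign compounds. BPA is a plastic monomer that can bind oestrogen receptors, and in female fish the liver makes yolk precursors under oestrogen. The rainbow trout genome descends from an ancestor with a whole-genome duplication, so many genes have close copies, and fragments of such copies may have been divided between them when genes were quantified. The tables identify genes only by annotation identifiers, none of which matched the reference gene table used here. The members therefore carry no names or roles, the liver label was not checked against marker genes, and no gene lists were analysed. A change in bulk liver RNA cannot tell fewer cells of a type from less RNA per cell.

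The libraries held 6788947 to 19528494 gene-assigned fragments (median 14032867). The scale of the libraries differed between time points. Over the 21279 genes with at least 2 CPM in some group, the median log2 ratio of F2 over F1 at 365 dpf was 0.17 for Controls, 0.28 for BPA4 and 0.21 for BPA40, and that of F2 112 over F1 140 dpf was -0.41 for Controls, -0.58 for BPA4 and -0.63 for BPA40. On the plain CPM scale that the rule used, a gene of median behaviour thus stood slightly high in F2 at 365 dpf and low in F2 at the earlier age. Library sizes were also scaled by TMM (trimmed mean of M values). All 114 members then kept the sign of both Control ratios. Both ratios stayed at 1 or more in 67 members higher in F2 and 30 lower in F2. These are the Control values that chose the members, and TMM moved their ratios by less than the limit of 1. The kept signs thus followed from the choice, and neither count is a test of the difference. The whole rule, which also limits the change with age, chose only 65 of the 114 again on that scale.

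The smaller of a member's 2 Control ratios, by which members were ranked, ran from 1.00 to 4.37 in size with a median of 1.29. The last members inside the limit of the rule had 1.00 and 1.01, and the first genes outside it had 0.9993 and 0.987. It was at least 2 in 17 members, 9 higher and 8 lower in F2, and at least 3 in 4 members, of which 1 was higher and 3 were lower in F2. Most members had low levels. Their mean over the 16 Control fish had a median of 4.29 CPM and was under 10 CPM in 88 members (77.2%), while the median over all 19808 genes with at least 2 CPM in a Control group was 6.93 CPM and 59.3% of those were under 10 CPM. Only 5 members averaged 50 CPM or more. Transcript length, as implied by the ratio of CPM to FPKM, had a median over the members of 0.997 of the length of a fish's median gene, against 0.979 over all 21279 genes.

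**Figure D1:**
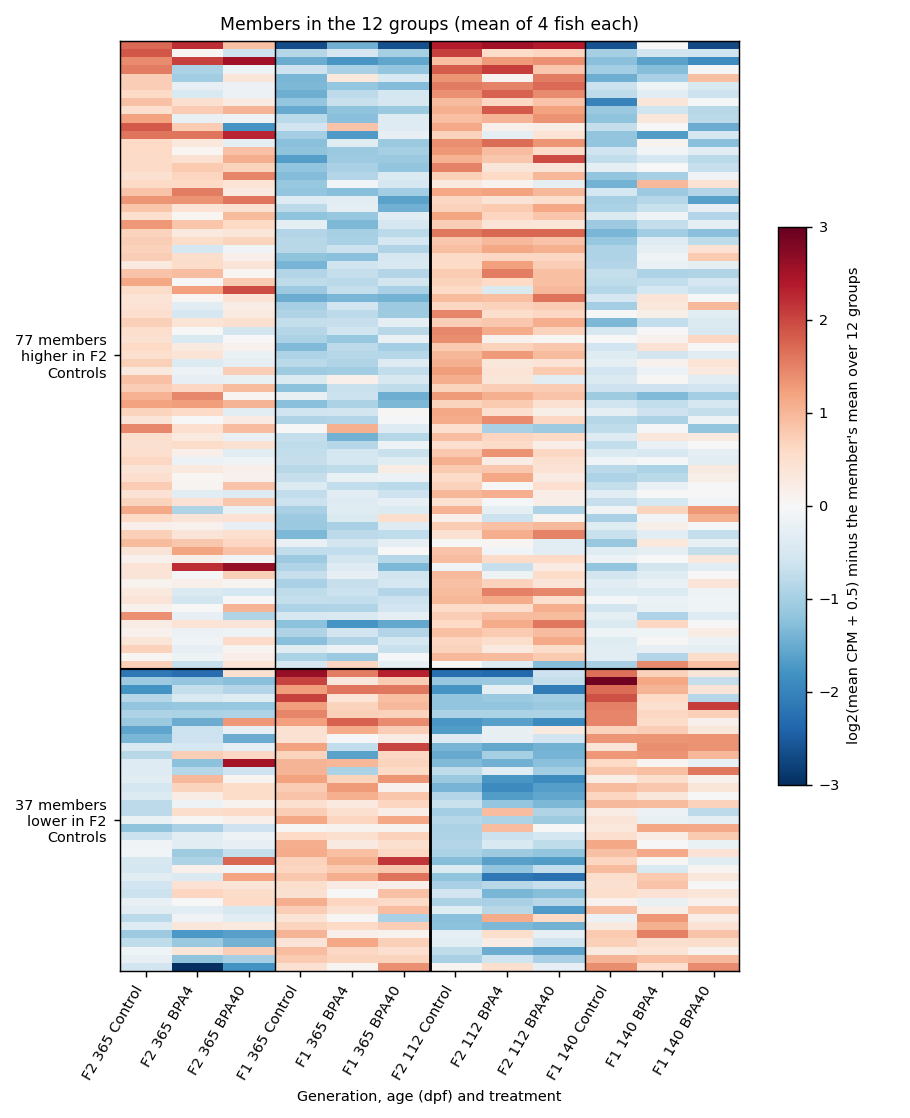
Heat map of the 114 members (rows, by rank within each direction) in the 12 groups (columns, named by generation, age in dpf and treatment). Colour gives log2(mean CPM + 0.5) of 4 fish minus the member's mean over the 12 groups. The upper 77 rows are mostly red in the F2 columns and blue in the F1 columns and the lower 37 rows the reverse, most evenly in the Control columns, which chose the members.

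The Control fish chose the members, so the difference was tested in the 32 BPA4 and BPA40 fish, which the rule did not use. Most members kept the direction seen in Controls, a count for which the share of all genes was not computed. On plain CPM, their median difference was nearer to 0 than in the Controls that chose them, except in the lower group at the earlier ages. There it was nearly as large on that scale. At 365 dpf the 77 members higher in F2 had a median log2 ratio of F2 over F1 of 0.94 in BPA40 and 0.91 in BPA4 fish, against 1.55 in the Controls that chose them. The 37 members lower in F2 had medians of -0.90 in BPA40 and -0.82 in BPA4 fish, against -1.30 in the Controls. At the earlier ages the medians were 0.92 in BPA40 and 1.06 in BPA4 fish for the members higher in F2, and -1.62 in BPA40 and -1.58 in BPA4 fish for the members lower in F2, against 1.49 and -1.64 in the Controls. The all-gene medians on the same scale are those given above. At the earlier ages they were also further below 0 in BPA40 (-0.63) and BPA4 fish (-0.58) than in Controls (-0.41), so the lower group's ratios are not on an equal footing there. With TMM, the Control medians at the earlier ages were 1.83 for the higher and -1.33 for the lower group. Medians of the fitted log2 fold changes were then 1.74 in BPA40 and 1.67 in BPA4 fish for the higher group. For the 36 tested members of the lower group they were -1.22 and -1.39. These fitted values, from the 32 BPA fish, have no 0.5 CPM added, so they are not on an equal footing with the ratios above. In Controls, which group differed more at the earlier ages depended on the scale. In BPA fish the scale and the measure changed together, and the part of each was not tested.

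At 365 dpf the sign was that of the Controls in 101 of 114 members in BPA40 fish and in 100 in BPA4 fish. The ratio was at least 1 in that direction in 53 members in each treatment. In BPA40 fish of that age, 36 were of the higher group (6.504% of all genes) and 17 of the lower group (1.26% of all genes). In BPA4 fish of that age they were 37 (8.41%) and 16 (2.15%). At the earlier ages the sign was kept in 104 members in BPA40 and 106 in BPA4 fish. Of the lower group, 36 of 37 kept it in each treatment. The all-gene medians there (-0.63 in BPA40 and -0.58 in BPA4 fish) have the same sign as the lower group. The kept signs of that group thus do not set it apart from the median gene. A ratio of at least 1 was kept in 61 members in BPA40 and 65 in BPA4 fish. In BPA40 fish these were 35 of the higher group (5.62% of all genes) and 26 of the lower group (34.4% of all genes). In BPA4 fish they were 40 (9.14%) and 25 (33.8%). The share of all genes was not computed for the signs or for all 4 comparisons together. In all 4 of these comparisons together, 85 members kept the sign and 17 kept a ratio of at least 1, while another 17 members reached 1 in none of them. Between 2 and 3 members in each comparison had a ratio of at least 1 in the opposite direction.

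**Figure D2:**
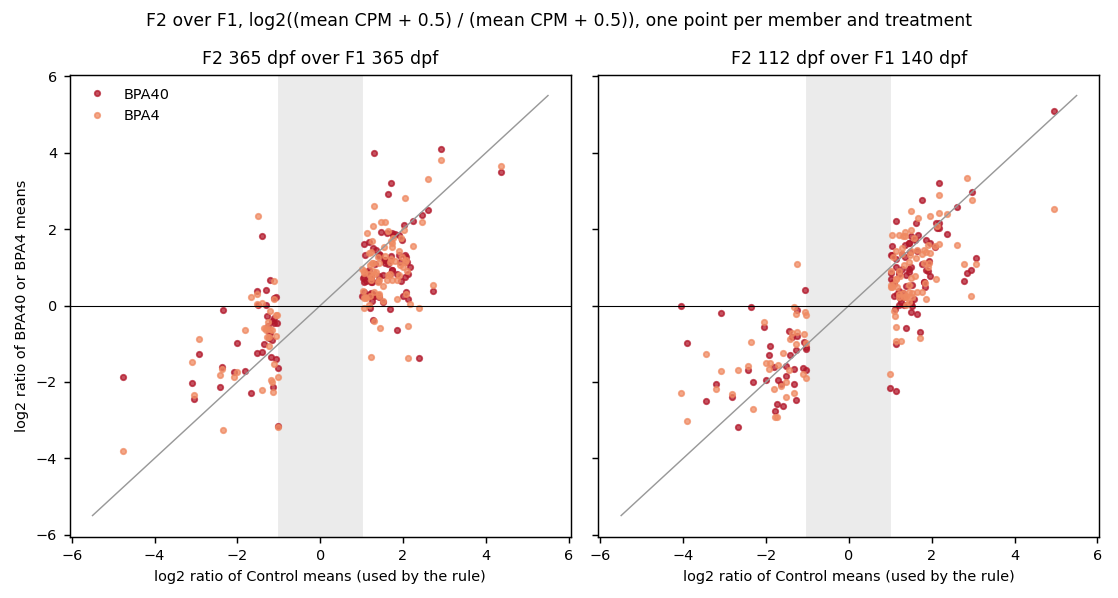
Log2 ratio of F2 over F1 means in BPA40 and BPA4 fish (vertical axis) against the ratio in Control fish that the rule used (horizontal axis), at 365 dpf (left) and for F2 112 over F1 140 dpf (right), 1 point per member and treatment, 0.5 CPM added to each mean. The grey band holds ratios under 1 in size, which the rule left out, and the diagonal marks equal ratios. Most points lie on the same side of 0 as the Controls but nearer to 0 than the diagonal.

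In the test of all genes (edgeR's quasi-likelihood test on fragment counts of the 32 BPA fish, TMM normalization, Benjamini-Hochberg adjustment over 26296 genes, threshold 0.05), 113 of the 114 members passed the filter on low counts. At 365 dpf, few members passed the threshold. In BPA40 fish, 3 of 77 members of the higher group were called higher in F2 (3.9%), where 0.43% of all genes were, and 1 of 36 tested members of the lower group was called lower (2.78%), where 0.145% of all genes were. In BPA4 fish, 9 of 77 were called higher (11.7%, against 1.1% of all genes) and 4 of 36 lower (11.1%, against 0.924%). Only 2 members were called at 365 dpf in both treatments, 1 of 77 higher (0.0799% of all genes) and 1 of 36 lower (0.0532%). No member was called in the direction opposite to that of the Controls at 365 dpf.

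These counts at 365 dpf depended on the tool and on single fish. DESeq2 called 21 members in the Control direction in BPA40 fish, 16 higher and 5 lower, and 27 in BPA4 fish, 18 higher and 9 lower, with 1 member called against the Control direction. By the same tool 1.92% of all genes were called higher and 0.73% lower in BPA40 fish, and 4.21% higher and 1.96% lower in BPA4 fish. Without TMM, 16 members were called higher and 1 lower in BPA40 fish (1.74% and 0.106% of all genes), and 18 higher and 4 lower in BPA4 fish (3.53% and 0.411% of all genes). The 4 calls in BPA40 fish became 2 without F1 365 BPA40 replicate 1 or F2 365 BPA40 replicate 0. They became 7 without F1 140 BPA4 replicate 0 or F2 112 BPA40 replicate 1, 8 without F1 140 BPA40 replicate 1 or 2, F2 112 BPA40 replicate 2 or F2 365 BPA4 replicate 2, and 9 without F1 140 BPA40 replicate 0, F2 112 BPA4 replicate 1 or F2 365 BPA4 replicate 0. The 13 calls in BPA4 fish became 6 without F1 365 BPA4 replicate 0 and 8 without F2 365 BPA4 replicate 1 or 3. The calls over all genes tested, in either direction, moved widely as well. They were 151 in BPA40 and 531 in BPA4 fish with all BPA fish in the fit. With a fish left out they ran from 24 to 312 and from 122 to 821.

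At the earlier ages many more members passed the threshold, as did many more of all genes. In BPA40 fish, 51 of 77 members of the higher group were called higher in F2 112 than in F1 140 dpf fish (66.2%), against 18.2% of all genes, and 15 of 36 members of the lower group were called lower (41.7%), against 23.3% of all genes. In BPA4 fish, 50 of 77 were called higher (64.9%, against 19.9% of all genes) and 14 of 36 lower (38.9%, against 25.8%). A single member was called against the Control direction in each treatment. In both treatments together, 41 of 77 members of the higher group were called higher (15% of all genes) and 10 of 36 of the lower group were called lower (17%). Without TMM, the all-gene median of the log2 change moved to -0.92 in BPA40 and -0.82 in BPA4 fish, compared with -0.32 and -0.30 with TMM. The calls were then 32 higher and 20 lower in BPA40 fish (7.87% and 40.8% of all genes) and 34 higher and 19 lower in BPA4 fish (11% and 38.9% of all genes). The share of members of the lower group that was called stood nearer to the share of all genes than that of the higher group on both scales.

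**Figure D3:**
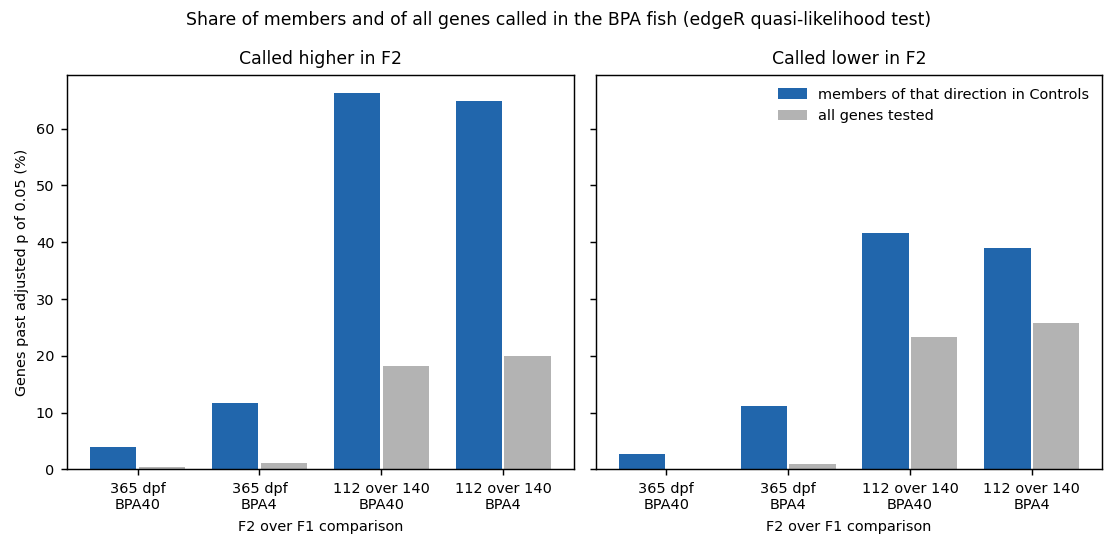
Share of the tested members called in the direction of the Controls (blue) and share of all 26296 genes called in that direction (grey), in percent, for 4 comparisons of F2 with F1 in BPA fish. The 77 members higher in F2 are on the left and the 36 tested members lower in F2 on the right. Members exceed all genes in each pair of bars, from 2.78% against 0.145% at the lowest to 66.2% against 18.2% at the highest.

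In all 4 comparisons, 0 members were called higher (0.0114% of all genes) and 1 lower (0.0228%). At 365 dpf, all 8 BPA fish of F2 lay above all 8 of F1 in 9 of the 77 members of the higher group, a pattern seen in 2.89% of the 21279 genes, and in 0 of the 37 members of the lower group did they all lie below (0.136% of genes). At the earlier ages they lay above in 7 of 77 (4.94% of genes) and below in 5 of 37 (16.6% of genes). Of the members of the lower group the share at the earlier ages was thus near that of all genes. At both ages, 2 of 77 members lay wholly above in F2 (0.0235% of genes) and 0 of 37 wholly below (0.0376% of genes). These counts of fish that lay apart were made on plain CPM, and overlap on the TMM scale was not tested.

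Both members that separated at both ages had low but even levels. They are given by their rank under the rule, 52 and 40, and were singled out once the values were known. The member of rank 52 had 7.77, 6.80, 7.17 and 8.00 CPM in BPA40 fish and 9.30, 12.8, 11.8 and 12.3 CPM in BPA4 fish of F2 at 365 dpf. In F1 at 365 dpf it had 3.86, 6.17, 4.71 and 3.61 CPM in BPA40 fish and 4.06 to 5.60 CPM in BPA4 fish. The F2 fish nearest to F1 and the F1 fish nearest to F2 were both BPA40. These levels are plain CPM. The mean log2 TMM factor at 365 dpf was 0.44 in BPA40 fish of F2 and 0.16 in those of F1. Scaling by TMM thus lowers the F2 levels more, and whether the fish stayed apart on that scale was not tested. In the younger fish its levels were 15.6 to 18.7 CPM in BPA40 and 18.6 to 26.7 CPM in BPA4 fish of F2, against 5.38 to 8.31 CPM in BPA40 and 4.54 to 6.81 CPM in BPA4 fish of F1. It was called higher in the younger F2 fish in BPA40 (log2 fold change 1.97 ± 0.23 (SE), edgeR adjusted p = 8.44e-07) and in BPA4 (2.47 ± 0.24, edgeR adjusted p = 2.09e-08). At 365 dpf it was called in BPA4 (1.05 ± 0.23, edgeR adjusted p = 0.0161), and lost only without F1 365 BPA4 replicate 0 (edgeR adjusted p = 0.0547) among 32 fits that each left out a fish, while in BPA40 the log2 fold change was 0.40 ± 0.23 (edgeR adjusted p = 0.521).

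The member of rank 40 had 3.37 to 5.66 CPM in BPA40 and 6.81 to 9.61 CPM in BPA4 fish of F2 at 365 dpf, against 1.56 to 2.45 CPM in BPA40 and 1.52 to 3.29 CPM in BPA4 fish of F1. In the younger fish it had 5.01 to 12.4 CPM in BPA40 and 8.59 to 17.0 CPM in BPA4 fish of F2, against 1.57 to 2.31 CPM in BPA40 and 1.25 to 2.30 CPM in BPA4 fish of F1. It was called in the younger fish of both treatments and at 365 dpf in BPA4 (log2 fold change 1.54 ± 0.30 (SE), edgeR adjusted p = 0.00738), and each of these calls held in all 32 fits that left out a fish. In BPA40 at 365 dpf the log2 fold change was 0.82 ± 0.30 (edgeR adjusted p = 0.224).

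A single member, of rank 108 and lower in F2, was called in all 4 comparisons. It averaged 118.6 CPM over the Control fish. At 365 dpf it had 36.5, 81.9, 46.9 and 22.2 CPM in BPA40 and 53.8, 49.9, 27.1 and 30.8 CPM in BPA4 fish of F2. In F1 at 365 dpf it had 221, 118, 76.9 and 176 CPM in BPA40 and 165, 158, 73.4 and 199.7 CPM in BPA4 fish. One BPA40 fish of F2 (81.9 CPM) lay above the lowest 2 fish of F1, and the generations were otherwise apart at that age. In the younger fish it had 37.5 to 54.6 CPM in BPA40 and 45.8 to 72.9 CPM in BPA4 fish of F2, all below the 123 to 205 CPM in BPA40 and 118 to 246 CPM in BPA4 fish of F1. The log2 fold changes at 365 dpf were -1.98 ± 0.38 in BPA40 (SE, edgeR adjusted p = 0.0131) and -2.18 ± 0.38 in BPA4 (adjusted p = 0.00433). In fish of the earlier ages they were -1.33 ± 0.37 in BPA40 (adjusted p = 0.00517) and -1.01 ± 0.37 in BPA4 (adjusted p = 0.0262). The call in BPA40 at 365 dpf was lost without F2 365 BPA40 replicate 0 (adjusted p = 0.0554) and with only the compared groups in the fit (adjusted p = 0.0903). That in BPA4 at the earlier ages was lost without F1 140 BPA4 replicate 1 or 3 or F2 112 BPA4 replicate 1 (adjusted p of 0.0539 to 0.0839).

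The remaining 3 calls in BPA40 fish at 365 dpf were members of the higher group at ranks 24, 30 and 42. That of rank 30 had the smallest adjusted p, 0.000766, with a log2 fold change of 3.64 ± 0.51 (SE, edgeR). It had 11.6, 10.6, 8.72 and 11.6 CPM in BPA40 fish of F2 at 365 dpf, against 0.616, 0.623, 1.25 and 0.295 CPM in those of F1, and this call held in all 32 fits that left out a fish. The BPA40 fish of F2 were close to each other, whereas the Controls of that time point included fish at 2.59 and 21.9 CPM. The member of rank 24 had 0 fragments in all BPA40 fish of F1 at 365 dpf and 0.0536 to 3.32 CPM in those of F2 (adjusted p = 0.0268), and its call was lost without F1 365 BPA40 replicate 0, 1 or 2 or F2 365 BPA40 replicate 0 (adjusted p of 0.0561 to 0.0803) and with all 48 fish in the fit (adjusted p = 0.0501), and it was not tested at a mean of at least 1 CPM or with only the compared groups. The member of rank 42 had 2.25 to 12.1 CPM in BPA40 fish of F2, against 0.0738 to 0.728 CPM in those of F1 (3.66 ± 0.78, adjusted p = 0.0257), and its call was lost without F1 365 BPA40 replicate 1 or 2 or F2 365 BPA40 replicate 3 (adjusted p of 0.0632 to 0.0759).

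**Figure D4:**
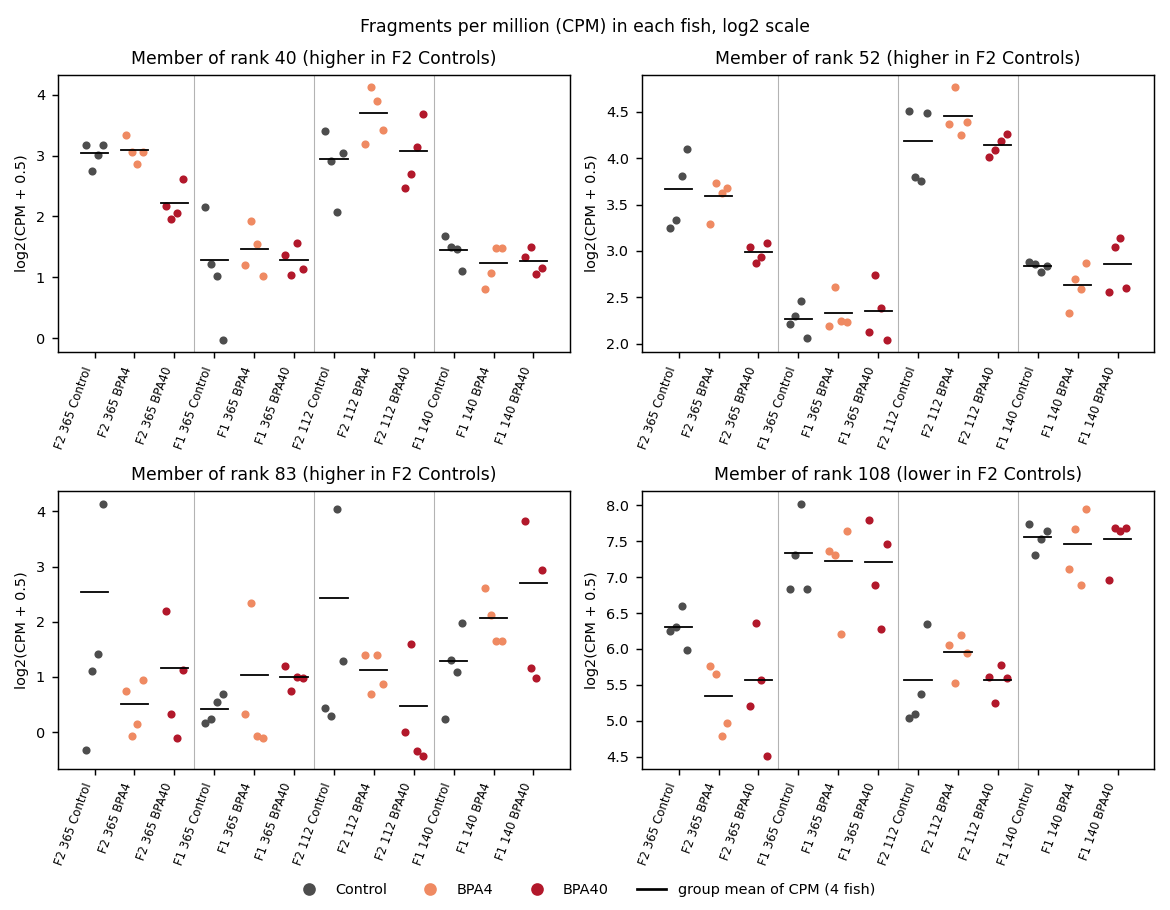
Level of 4 members in each of the 48 fish, as log2(CPM + 0.5), with the 12 groups on the horizontal axis (generation, age in dpf, treatment), 1 point per fish and a line at the group mean of CPM. On this plain CPM scale, the members of ranks 40 and 52 keep all BPA fish of F2 above those of F1 at both ages. The member of rank 108 is lower in F2 in all 4 comparisons, and the Control means of the member of rank 83 rest on 1 fish at each age of F2.

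The member of rank 83 went the other way. It was chosen as higher in F2 through a single Control fish at each age, with 0.296, 1.65, 2.17 and 17.1 CPM in F2 at 365 dpf and 0.853, 0.721, 16.04 and 1.94 CPM in F2 at 112 dpf, against 0.616 to 1.12 CPM at 365 dpf and 0.677 to 3.45 CPM at 140 dpf in the Controls of F1. In BPA40 fish it was called lower in F2 112 than in F1 140 dpf (log2 fold change -2.07 ± 0.79 (SE), edgeR adjusted p = 0.0352), with 0.238 to 2.54 CPM in F2 and 1.48 to 13.7 CPM in F1. A member of rank 66, lower in F2 Controls, was called higher in BPA4 fish of F2 at the earlier age (1.93 ± 0.72, edgeR adjusted p = 0.0287), with 0.801 to 9.05 CPM in F2 and 0.268 to 2.27 CPM in F1. The groups overlapped in both members. The call at rank 83 was lost without F1 140 BPA40 replicate 0 or 3 or F2 112 BPA40 replicate 0, 2 or 3 (adjusted p of 0.0582 to 0.219). That at rank 66 was lost without TMM (adjusted p = 0.123) and without F1 140 BPA4 replicate 1 or 2 or F2 112 BPA4 replicate 2 (adjusted p of 0.0588 to 0.28).

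The member ranked first by the rule was GSONMT00064457001, which was present in most F2 fish and at or near 0 in most F1 fish. In F2 at 365 dpf it had 0, 14.7, 10.8 and 15.5 CPM in Control, 11.5, 15.7, 14.5 and 17.5 CPM in BPA4 and 8.54, 0, 0 and 13.6 CPM in BPA40 fish. In F1 at 365 dpf it was 2.74 CPM in a BPA4 fish and at most 0.1246 CPM in every other fish. In F2 at 112 dpf it had 10.5, 17.9, 21.0 and 15.99 CPM in Control, 16.2, 0.160, 19.4 and 37.7 CPM in BPA4 and 23.7, 14.5, 12.7 and 15.2 CPM in BPA40 fish. In F1 at 140 dpf it was at 6.74 and 4.26 CPM in a pair of BPA4 fish and at most 0.0847 CPM in every other fish. Single fish of either generation thus went against their group, with 13 of 16 BPA fish of F2 and 3 of 16 BPA fish of F1 at 1 CPM or more, a level chosen after the values were seen.

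It was called higher in F2 at the earlier ages in BPA40 (edgeR adjusted p = 0.000426) and in BPA4 (log2 fold change 3.29 ± 1.23 (SE), adjusted p = 0.0301). In BPA40 at 140 dpf all 4 F1 fish had 0 fragments, so that the level in F2 was at least 250.5-fold higher when set against 3 fragments over the F1 group. At 365 dpf it missed the threshold in BPA40 (adjusted p = 0.0965) and in BPA4 (3.97 ± 1.32, adjusted p = 0.11). The 2 fragments in BPA40 fish of F1 at 365 dpf, against 377 in those of F2, give a ratio of 174 with a 95% exact interval of 47.7 to 1439, which covers counting error only. The call in BPA4 at the earlier ages was lost without TMM, with DESeq2, with only the compared groups in the fit and in 4 of the fits that left out a fish, those without F1 140 BPA4 replicate 1 or 2 and those without F2 112 BPA4 replicate 2 or 3, with adjusted p of 0.0509 to 0.0939.

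The member GSONMT00041952001, ranked first among those lower in F2, showed the reverse. It had at most 0.202 CPM in each Control fish of F2 at both ages, against 9.93 to 29.9 CPM in Controls of F1 at 365 dpf and 6.43 to 9.61 CPM at 140 dpf. In BPA4 fish it had 0.124, 0.0647, 0 and 0.0752 CPM in F2 at 365 dpf, against 14.5, 3.92, 11.3 and 0.218 CPM in F1. In BPA40 fish it had 0.356, 0.321, 12.4 and 0.175 CPM in F2 at 365 dpf, against 23.4, 1.18, 12.5 and 16.7 CPM in F1. At the earlier ages it had 0.102, 0, 0.0974 and 0 CPM in BPA4 fish of F2, against 10.8, 0, 3.61 and 1.45 CPM in those of F1. The BPA40 fish had 0, 0, 4.94 and 0.238 CPM in F2 at 112 dpf, against 9.21, 0, 1.85 and 1.22 CPM in F1 at 140 dpf. A single BPA40 fish of F2 at each age thus reached an F1 level, and 3 F1 fish had an F2 level.

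It was called lower in F2 in BPA4 fish at 365 dpf (log2 fold change -6.89 ± 1.81 (SE), edgeR adjusted p = 0.0417) and at the earlier ages (adjusted p = 0.0414). In the younger fish 193 fragments in BPA4 fish of F1 stood against 2 in F2, a ratio of F1 over F2 of 75.1 with a 95% exact interval of 20.5 to 625 for counting error. It was not called in BPA40 fish at 365 dpf (-2.27 ± 1.22, adjusted p = 0.489) or at the earlier ages (-0.73 ± 1.30, adjusted p = 0.676), where the single high fish of F2 lie. Within F2 alone, the levels of BPA40 and BPA4 fish were compared, and the difference was not called (BPA40 over BPA4, 5.38 ± 1.82 at 365 dpf, edgeR adjusted p = 0.527, and 4.43 ± 2.30 at 112 dpf, edgeR adjusted p = 0.74). Whether the F2 over F1 difference itself differed between the doses was not tested. Both calls in BPA4 were close to the threshold, each was lost when single fish were left out, and neither was tested with only the compared groups in the fit. At 365 dpf these were F1 365 BPA4 replicate 0, 1 or 2 and any of the F2 365 BPA4 fish (adjusted p of 0.0726 to 0.127). In the younger fish they were F1 140 BPA4 replicate 0 or 2 and any of the F2 112 BPA4 fish (adjusted p of 0.0528 to 0.147).

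**Figure D5:**
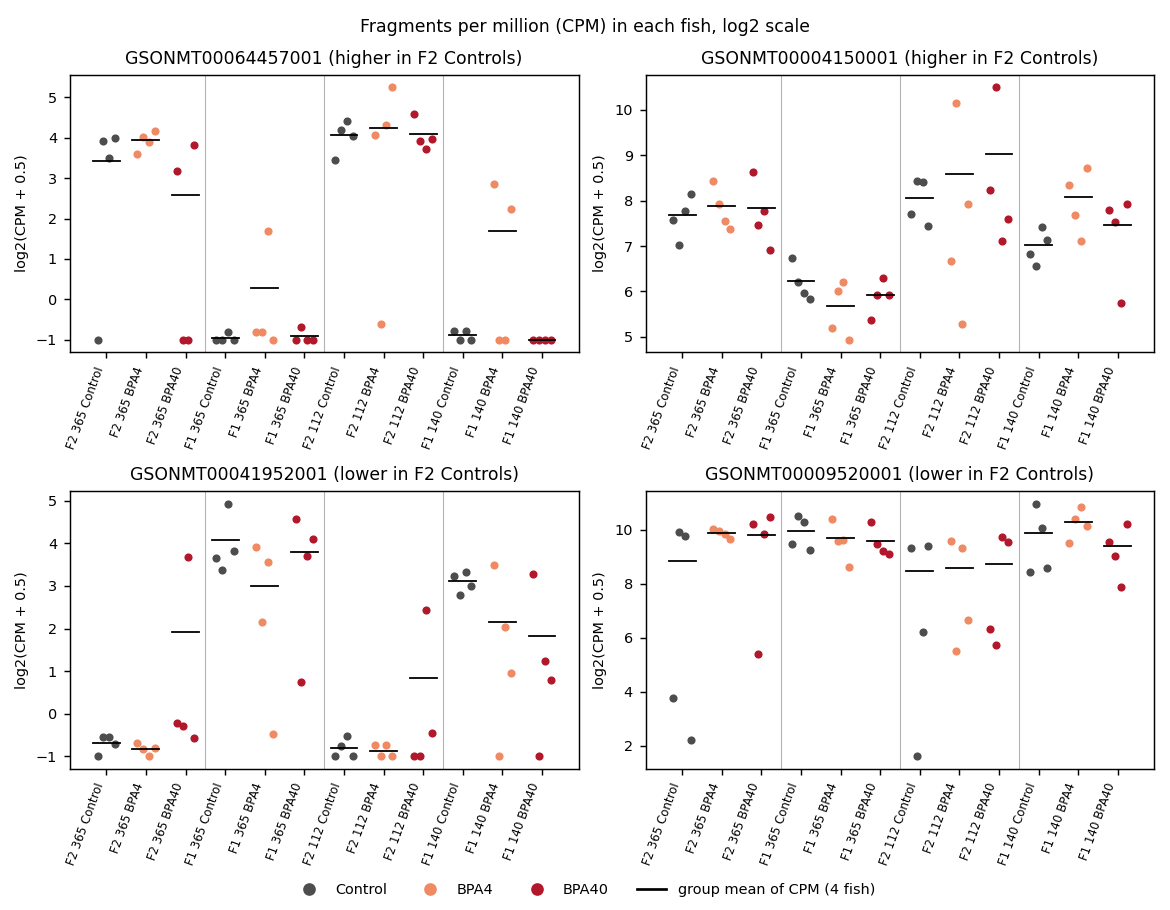
Level of the 4 named members in each of the 48 fish, as log2(CPM + 0.5), with the 12 groups on the horizontal axis (generation, age in dpf, treatment), 1 point per fish and a line at the group mean of CPM. GSONMT00064457001 lies near 0 CPM or well above it with few fish between. GSONMT00041952001 lies near 0 CPM in most F2 fish and is spread from 0 to 23.4 CPM in BPA fish of F1. GSONMT00009520001 splits the F2 fish into high and low ones, and GSONMT00004150001 has a very high BPA fish at F2 112 dpf in each dose.

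The most abundant member, GSONMT00009520001, was chosen as lower in F2, where 4 of the 8 Control fish had little of it. In F2 Controls it had 13.0, 961, 877 and 4.08 CPM at 365 dpf and 645, 2.52, 73.3 and 681 CPM at 112 dpf. In F1 Controls it had 709, 1450.4, 1246 and 604 CPM at 365 dpf and 342, 1998, 1075 and 380 CPM at 140 dpf. The high F2 fish lay within the range of F1. In BPA4 fish it had 1037, 984, 913 and 801 CPM in F2 at 365 dpf, against 1353, 763, 794 and 391 CPM in F1. In BPA40 fish of F2 at 365 dpf it had 1182, 42.1, 923 and 1408 CPM, against 1239, 713, 593 and 549 CPM in F1. At 112 dpf it was at 44.7 and 99.4 CPM in a pair of BPA4 fish and at 53.2 and 79.2 CPM in a pair of BPA40 fish, with the other 4 between 646 and 841 CPM.

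Under 100 CPM, a level set after the values were seen, lay 5 of 16 BPA fish of F2, 2 BPA4 and 3 BPA40, and 0 of 16 BPA fish of F1. In the BPA fish it was called in none of the 4 comparisons. The log2 fold changes at 365 dpf were -0.10 ± 0.76 in BPA40 (SE, edgeR adjusted p = 0.99) and -0.14 ± 0.76 in BPA4 (adjusted p = 0.957), and both turned positive, to 0.20 and 0.18, without TMM. Between F2 112 and F1 140 dpf they were -0.14 ± 0.76 in BPA40 (adjusted p = 0.893) and -1.24 ± 0.77 in BPA4 (adjusted p = 0.19). Of the summed CPM of the 37 members lower in F2, this member made up 10.02% to 83.7% in BPA fish of F2 and 32.1% to 74.6% in those of F1. Without it the sum ran from 173 to 399 CPM in the 16 BPA fish of F2 and from 488 to 911 CPM in the 16 of F1. These sums are plain CPM. The mean log2 TMM factor at 112 dpf was -0.52 in BPA40 and -0.48 in BPA4 fish of F2. In F1 at 140 dpf it was 0.04 and -0.02. Scaling by TMM thus raises the younger F2 levels more, and overlap of the sums on that scale was not tested.

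The most abundant member of the higher group, GSONMT00004150001, differed most evenly at 365 dpf. There it had 190, 130.3, 219 and 284 CPM in Control, 343, 242, 187 and 166 CPM in BPA4 and 397, 177, 218 and 119.7 CPM in BPA40 fish of F2. In F1 at 365 dpf it had 56.6 to 106 CPM in Control, 30.1 to 73.1 CPM in BPA4 and 40.7 to 78.7 CPM in BPA40 fish, all below the lowest F2 fish. In F2 at 112 dpf it had 102, 1144, 38.5 and 243 CPM in BPA4 and 301, 1450.1, 139 and 193 CPM in BPA40 fish, and in F1 at 140 dpf 139 to 419 CPM in BPA4 and 52.9 to 244 CPM in BPA40 fish. The generations overlapped at the earlier ages, and 1 fish of each dose stood far above the rest.

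Its log2 fold changes at 365 dpf were 1.58 ± 0.74 in BPA40 (SE, edgeR adjusted p = 0.398) and 1.91 ± 0.75 in BPA4 (adjusted p = 0.181). Neither passed the threshold over all genes, although on plain CPM the 8 BPA fish of each generation did not overlap. It was called at the earlier ages in BPA40 (2.44 ± 0.77, adjusted p = 0.0118), and the call rested on F2 112 BPA40 replicate 1, without which the log2 fold change was 0.86 (adjusted p = 0.323). In BPA4 the value was 1.23 ± 0.74 (adjusted p = 0.174), and -0.66 (adjusted p = 0.43) without F2 112 BPA4 replicate 1. The call in BPA40 was also lost without TMM (1.56, adjusted p = 0.066).

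The summed level of the 77 members of the higher group followed the same order. At 365 dpf it was 800.4 to 1321 CPM in the 8 BPA fish of F2 and 313 to 494 CPM in the 8 of F1. In fish of the earlier ages it was 897 to 2424 CPM in the 8 BPA fish of F2 and 490.4 to 841 CPM in the 8 of F1. Without GSONMT00004150001 the sums were 533 to 924 CPM in F2 and 264 to 415 CPM in F1 at 365 dpf, and 859 to 1144 CPM in F2 and 352 to 519.7 CPM in F1 at the earlier ages. The BPA fish of the generations did not overlap within an age on either sum. These sums are plain CPM. Scaling by TMM lowers the levels at 365 dpf more in F2 than in F1, and overlap of the sums on that scale was not tested.

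The spread between fish of a group was larger in the members than in most genes, which is given as a description. The standard deviation of log2(CPM + 0.5) within groups of BPA fish had a median of 0.76 over the members, against 0.46 over all 21279 genes. In the middle range of the members' levels it was 0.78 for 56 members, against 0.48 for 7508 genes. It was 0.97 for the members lower in F2 and 0.68 for those higher in F2. A group of BPA fish that held both a fish at 2 CPM or more and a fish at 0.1 CPM or less was seen in 26 members, 12 higher and 14 lower in F2, and in 6.55% of all 21279 genes. These limits were chosen after the values were seen. Of the 26 members, 7 showed such a group in both generations. In 35 members at least 1 fish had 0 fragments. Over the 6441 pairs of members, the correlation of deviations from the group mean in the 32 BPA fish had a median of 0.03, and it reached 0.8 in only 1 pair.

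That pair, ranks 3 and 5 and both lower in F2, carries consecutive identifiers in the annotation (r = 0.85, 32 fish, given as a description). The member of rank 3 had 57.9, 6.79, 11.1 and 7.07 CPM in BPA4 fish of F1 at 140 dpf, where that of rank 5 had 4.23, 0.0894, 0.285 and 0.255 CPM. In BPA40 fish of F1 at 365 dpf rank 3 had 51.2, 4.24, 4.39 and 2.29 CPM and rank 5 had 5.71, 0.374, 0.0627 and 0.295 CPM. The same fish was thus high in both members in each group. In F2, rank 3 lay between 1.62 and 7.44 CPM and rank 5 at or below 0.526 CPM in all 24 fish. Rank 5 is the member that did not pass the filter on low counts. The most alike member had an r of 0.56 for GSONMT00064457001, 0.68 for GSONMT00004150001, 0.39 for GSONMT00041952001 and 0.62 for GSONMT00009520001 over the same 32 fish.

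The rule kept genes whose plain CPM changed little with age in Controls, whereas the calls below are on the TMM scale unless stated. The mean log2 TMM factor was -0.42 in Controls of F2 at 112 dpf and 0.28 at 365 dpf. TMM scaling thus lowers the 365 over 112 dpf ratios of these Controls as well. Their change with age was not tested on that scale. With TMM, most members of the higher group fell between 112 and 365 dpf in BPA fish of F2. In F2, 61 of 77 were called lower at 365 than at 112 dpf (31.9% of all genes) and 2 higher (47.7% of all genes). In F1, 25 of 77 were called lower at 365 than at 140 dpf (19.8% of all genes) and 0 higher (27.8% of all genes). At an unadjusted p under 0.05, 42 of the 113 members of either group (37.2%, against 54.5% of all genes) differed with age in F1 by edgeR, and DESeq2 called 34 after adjustment (30.1%, against 51.1% of all genes), 1 of them a member of the higher group that was higher at 365 dpf. Of the 36 members of the lower group, 10 were called higher and 10 lower in F2, and 6 higher and 4 lower in F1. The values in F2 rested on the scale. The median log2 change of all genes between 112 and 365 dpf in F2 was 0.57 with TMM and 1.51 without. Without TMM, 26 of the members of the higher group were called lower (16.6% of all genes) and 9 higher (64% of all genes). Of the 83 called members, 6 then changed sign.

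The generation difference itself changed with age in 33 of 113 members (29.2%, against 52.1% of all genes, by the interaction in the same fit). Of the members of the higher group, 22 had a smaller F2 over F1 difference at 365 dpf than at the earlier age (21.2% of all genes moved this way) and 2 a larger one (30.9% of all genes moved this way). Of the members of the lower group, 5 moved down and 4 up. Here too the split depended on the scale. Without TMM the median of all genes moved to 1.25 from 0.39 on the log2 scale. On that scale 8 members of the higher group moved down and 8 up, and 1 member of the lower group moved down and 10 up. The shares of all genes were then 8.11% down and 55.3% up. Of the 33 members, 15 were called again.

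Few members were called between the doses. At F1 140 dpf, 1 of 113 members was called between BPA40 and BPA4, where 0.0913% of all genes were. At F1 365, F2 112 and F2 365 dpf, 0 members were called by edgeR, where 0.0038%, 0.0114% and 0.038% of all genes were, and 14, 7 and 14 members had an unadjusted p under 0.05 (12.4%, 6.19% and 12.4%, against 5.02%, 6.91% and 6.23% of all genes). DESeq2 called 1 member at F1 140, 1 at F1 365, 0 at F2 112 and 1 at F2 365 dpf, and 101, 84, 33 and 43 of all genes there. The called member, of rank 113 and higher in F2, had 9.39, 6.28, 7.48 and 6.69 CPM in BPA40 and 3.45, 2.95, 1.42 and 2.21 CPM in BPA4 fish of F1 at 140 dpf (log2 fold change 1.55 ± 0.31 (SE), edgeR adjusted p = 0.0379). The groups did not overlap, and the Controls of that time point had 3.39 to 4.92 CPM. The call was lost without F1 140 BPA4 replicate 0, 2 or 3, F1 140 BPA40 replicate 0 or 2, or F2 365 BPA40 replicate 1.

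The median over the 77 members of the higher group was 5.30 CPM in Control, 4.26 CPM in BPA4 and 4.18 CPM in BPA40 fish of F2 at 365 dpf, against 1.45, 2.03 and 1.94 CPM in those of F1. In the younger fish it was 6.22 CPM in Control, 5.67 CPM in BPA4 and 5.92 CPM in BPA40 fish of F2, against 1.82, 2.51 and 2.99 CPM in those of F1. The members of the lower group had medians of 2.75 CPM in Control, 2.92 CPM in BPA4 and 4.46 CPM in BPA40 fish of F2 at 365 dpf, against 8.83, 7.21 and 10.4 CPM in those of F1. Their medians in the younger fish were 1.97, 2.13 and 1.31 CPM in F2, against 7.75, 6.84 and 5.41 CPM in F1, in the same order of treatments. BPA fish were not tested against Controls, because the Control values chose the members.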

How the data were processed

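Treatments and time points were taken from the sample labels. For the younger F2 fish, titles give 140 dpf but the characteristics give 112 dpf, and the second was taken. For F1 BPA40 fish, descriptions give 3 mg/l but titles and the study's methods give 30 mg/l, which was taken. The deposited tables hold raw fragment counts per gene and fish and FPKM. Per the methods of the authors, reads were mapped with TopHat2 2.1.0 and Bowtie2 2.2.6 to the published trout genome and counts and FPKM were made with Cufflinks and Cuffdiff. FPKM served only for relative length. The deposited raw fragment counts were whole in 100% of entries, and 8 columns of scaled fragments were not used. Depth was 6788947 to 19528494 fragments per fish. CPM used totals without the 17 HIDATA genes.

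The rule for members was applied to the 16 Control fish. Contrasts were fitted to the 32 BPA fish in 8 groups with edgeR 4.0.16 (quasi-likelihood test, TMM, filterByExpr, no covariates) in R 4.3.3, adjusted over 26296 genes, and an SE is the log2 fold change divided by the root of its F. Alternatives were DESeq2 1.42.0, other size factors and filters, other sets of fish, the replicate number as a block and each fish left out in turn. Named members are the first by rank and the most abundant in each direction, and other members go by rank only. Members, tests and alternatives were chosen with earlier results of these data known. P-values measure the spread between these fish, which share tanks. In 72 pairs of fish of a group, counts differed by a mean chi-square of 23.7 to 136 per gene, so no library duplicated another of its group. Libraries of different groups were not compared in this way.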

Additional observations from a re-analysis of the deposited data

Results flagged for a closer look

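In the 72 sets of 4 fish that the text reports (4 named members and 2 summed levels in 12 groups), 8 held a fish that stood apart from the other 3 by a Dixon test at the 95% level. For normally distributed values chance alone does this in about 1 of 20 sets. The test was run on CPM without a log scale, and the sums contain named members. The rate is therefore at most a rough guide for these sets. GSONMT00064457001 stood apart at 2.74 CPM in a BPA4 fish of F1 at 365 dpf, at 0.1246 CPM (2 fragments) in a BPA40 fish and at 0.0733 CPM (1 fragment) in a Control fish of that time point. In these last 2 sets the other 3 fish had 0 fragments, so that any fragment stands apart by construction, and they are not to be set against the chance rate. GSONMT00041952001 stood apart at 12.4 CPM in a BPA40 fish of F2 at 365 dpf and at 4.94 CPM in one at 112 dpf, both numbered replicate 2. GSONMT00004150001 stood apart at 1450 CPM in F2 112 BPA40 replicate 1, and the sum of the 77 members higher in F2 at 2424 CPM in the same fish. That sum also stood apart at 1321 CPM in F2 365 BPA40 replicate 0. The difference between generations changed with age in 33 of 113 members (29.2%, against 52.1% of all genes), as tested by the interaction term in the fit of the BPA fish. Without TMM, 15 of the 33 were called again.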

How the results depend on the processing

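The counts of members called in the F2 over F1 comparisons of the earlier ages stayed within 1.5 times of their main value in the 8 other settings tried, as did those of F1 with age and of the change of the generation difference with age. At 365 dpf in BPA40 fish the 4 calls became 21 with DESeq2, 8 with RLE size factors, 17 without TMM and 8 without the filter, and in BPA4 fish the 13 became 27 with DESeq2 and 22 without TMM. With RLE, 0.643% of all genes were called higher and 0.141% lower in BPA40 fish. The shares with DESeq2 and without TMM are given above, and that without the filter was not computed. The 83 members called with age in F2 became 55 without TMM, where 64% of all genes were called higher and 16.6% lower. Between doses, the 1 call at F1 140 dpf became 0 with RLE, without the filter, with only the groups compared and with the replicate block, and the 0 calls at F1 365 and F2 365 dpf became 1 with DESeq2. Leaving out each fish gave 2 to 9 calls in BPA40 and 6 to 15 in BPA4 fish at 365 dpf, 49 to 68 and 49 to 66 at the earlier ages, 30 to 39 with age in F1, 75 to 84 with age in F2, 28 to 36 for the change with age, and 0 to 1 between doses at F1 140 dpf. Over all genes tested, in either direction, these fits called 24 to 312 and 122 to 821 at 365 dpf. They called 8354 to 11951 and 10690 to 12444 at the earlier ages. With age they called 11168 to 13617 in F1 and 20727 to 21382 in F2, with 12825 to 14170 for the change with age. Between doses at F1 140 dpf they called 0 to 39.

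Of the 114 members, 65 were chosen again when the rule was applied to TMM-scaled CPM, which 107 genes passed, and 85 to 107 when a Control fish was left out. The log2 fold change of GSONMT00009520001 at 365 dpf turned to 0.20 in BPA40 and 0.18 in BPA4 fish without TMM. With single fish left out it ran from -0.44 to 0.30 in BPA40 and from -0.37 to 0.24 in BPA4 fish at 365 dpf, and from -0.62 to 0.25 in BPA40 fish at the earlier ages. There GSONMT00041952001 in BPA40 ran from -4.61 to 0.90 and GSONMT00004150001 in BPA4 from -0.66 to 1.49. Same-numbered fish of the generations share only a number, with correlations of their deviations from -0.15 to 0.14. With the replicate number as a block, 5 and 13 members were called at 365 dpf and 65 and 62 at the earlier ages in BPA40 and BPA4 fish. The share of all genes was not computed for the block.

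Depth limits the low members, since 1 fragment is a large part of a level near 0.1 CPM.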
